A study of Arabidopsis thaliana with 12 samples.

Results

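The difference between Al-treated and untreated roots, averaged over wild-type and *GmNTL4*-overexpressing Arabidopsis, was measured in 12 RNA-seq libraries, all 12 of the series. The comparison set 6 libraries of roots kept with Al against 6 control libraries, with the genotype as an additive term. Its result is an average, to which 1 genotype may contribute most. Each side held 3 libraries of wild type (WT) and 3 of plants carrying *GmNTL4*, a soybean gene for a membrane-bound NAC transcription factor, under the 35S promoter (OX). This promoter is active in most tissues, and OX plants were homozygous in the T3 generation. The study selected more than 1 overexpression line per gene, and which line gave the RNA is not stated in the sources used here. Al was 5 µM AlCl3, for 24 h per the sample labels and for 48 h per the series text and the methods. The medium in the methods was a dilute Hoagland solution at pH 4.5 with 0.5 mM CaCl2 and no added phosphate. The RNA-seq methods describe only seedlings with Al, and which libraries were controls was taken from the labels. Nothing in the labels says that replicates came from separate cultures, so the p-values measure the spread between these libraries, which may be technical.

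Al dissolves from soil minerals at acid pH and stops root growth within hours of reaching the root tip. Arabidopsis answers with the zinc finger factor STOP1, which turns on the malate channel gene *ALMT1* and the citrate transporter gene *MATE*, whose organic acids bind Al outside the root. Other known components move Al inside the plant, such as the ABC transporter subunits ALS3 and STAR1, the vacuolar ALS1 and the Al-malate channel NIP1;2. Al also binds pectin and stiffens the wall, where xyloglucan endotransglucosylase/hydrolases (XTH) cut and rejoin the hemicellulose xyloglucan.

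Expression was given in FPKM, the number of fragments on a gene divided by its transcript length and by the fragments of the whole library. Libraries held 16030391 to 17087008 fragments on genes. Of 25872 genes, 20773 reached 0.5 FPKM in at least 3 libraries and were tested, 5099 were not, and 343 of the tested genes passed this minimum in exactly 3 libraries. Changes are differences of log2(FPKM + 0.5), Al minus control, here called log2 fold changes. They understate the change of genes with low FPKM. A gene was called higher or lower at a Benjamini-Hochberg adjusted p of at most 0.05 (limma, over all tested genes) together with a log2 fold change of 1 or more in either direction.

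Some libraries stood apart. In control replicate 1 of both genotypes, several STOP1 pathway transcripts were far lower than in the other control libraries, as given below. The 24 shoot photosynthesis markers in the table summed to 1164 and 912 FPKM in WT Al replicates 2 and 3 and to 765 FPKM in WT control replicate 1, against 203 to 397 FPKM in the other 9 libraries. Of 23 such markers tested, 0 were called and all 23 had a log2 fold change above 0 (median 0.65), beside 10298 of all 20773 tested genes. Their part in the results was not tested, and the values of named genes without control replicate 1 of both genotypes, or without WT Al replicates 2 and 3, are given where they change a call. Markers of root tissues were present at unlike levels. The endodermis and suberin list summed to 262 to 532 FPKM in control and 357 to 406 FPKM in Al libraries. For the xylem list the sums were 19.7 to 44.9 and 13.3 to 38.1 FPKM. The 3 root cap markers were low, at 0.92 to 3.91 FPKM in control and 1.57 to 3.78 FPKM in Al libraries. In bulk roots, fewer cells of a type and less RNA per cell cannot be told apart.

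With Al, 192 genes were called higher (0.924% of 20773) and 161 lower (0.775%), 353 in all (1.7%). An adjusted p of at most 0.05 alone was reached by 1118 genes (5.38%). All 6 Al libraries lay above all 6 control libraries in 78 of the 192 genes called higher, where 219 genes (1.05%) of those tested did so, and below them in 121 of the 161 called lower, where 392 (1.89%) did so. The changes were moderate. The median size was 1.33 among genes called higher and 1.26 among those called lower, and 18 rises and 10 falls reached 2 on the log2 scale. Over all tested genes the median log2 fold change was -0.0021. Among OX Al libraries, replicate 1 was the highest in 11 of the genes called higher, replicate 2 in 106 and replicate 3 in 75. For genes called lower, replicate 1 was the lowest in 11, replicate 2 in 90 and replicate 3 in 60. In WT Al, replicate 3 was the extreme library least often, in 27 and 24 genes. Without OX Al replicate 1, 260 genes were called higher and 200 lower, and without OX Al replicate 2, 128 and 127. Leaving out WT Al replicates 2 and 3, which keeps 1 WT Al library, lost some of the 353 calls and gave others.

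The genes of largest change are named only from called genes whose Al and control libraries did not overlap. Among these, the largest rise was in AT3G13630 (chromosome 3, 4456954 to 4458179 in TAIR10.1), an uncharacterized protein gene. It was at 0, 0.273 and 0.421 FPKM in WT control and 0, 0.867 and 2.47 FPKM in OX control replicates 1 to 3. With Al it reached 15.2, 6.95 and 3.76 (WT) and 4.86, 39.1 and 57.8 FPKM (OX) (log2 fold change 3.84 with an SE of 0.59, limma adjusted p = 0.00372). Every Al library exceeded every control library, which was a condition of being named here, and the Al values spread over more than a decade. Of its control libraries only OX control replicates 2 and 3 reached 0.5 FPKM, so it passed the minimum only with its Al libraries. A model on the fragment counts gave an adjusted p of 0.0955 for this gene, so its call depended on the scale of the test.

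AT5G38910 (chromosome 5, 15578749 to 15579733), a cupin of the germin-like kind, rose from 0.833 ± 0.562 to 15.4 ± 8.18 FPKM (SD, n = 6), a change of 3.54 on the log2 scale (SE 0.32, adjusted p = 0.000587). Its control libraries stood at 0.937, 0.798 and 0.409 (WT) and 0.928, 0.141 and 1.78 FPKM (OX), and its Al libraries at 6.901, 11.2 and 11.2 and 19.3, 29.9 and 13.7 FPKM. The lowest Al value was thus several times the highest control value. AT3G56891 (chromosome 3, 21064088 to 21064986), annotated as a heavy metal transport and detoxification protein, was at 2.097, 1.25 and 1.11 (WT) and 5.15, 3.08 and 4.899 FPKM (OX) control roots. Al roots had 24.7, 25.9 and 25.8 (WT) and 16.4, 65.8 and 72.3 FPKM (OX) (log2 fold change 3.46 with an SE of 0.32, adjusted p = 0.000587). The WT Al libraries lay close together, while OX Al replicate 1 was far below the other OX Al libraries.

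*SULTR2;1* (chromosome 5, 3193017 to 3197136), a low-affinity sulfate transporter of vascular cells, was at 5.52, 4.297 and 2.46 FPKM in WT control and 3.897, 6.72 and 4.15 FPKM in OX control. Al libraries held 17.1, 9.97 and 18.8 (WT) and 18.5, 59.4 and 44.1 FPKM (OX) (log2 fold change 2.3, adjusted p = 0.00232, limma), and the groups did not overlap. *PGIP2* (chromosome 5, 2133918 to 2135168), whose product inhibits polygalacturonases that digest pectin, rose from 1.97 ± 1.18 to 9.71 ± 2.87 FPKM (SD, n = 6), a change of 2.21 on the log2 scale (adjusted p = 0.00721). Its lowest value was 0.1499 FPKM in OX control replicate 1, and its Al libraries spanned 6.09 to 13.6 FPKM.

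The other genes of the 12 largest non-overlapping rises had log2 fold changes of 2.16 to 2.95. They were AT2G14095 (an uncharacterized protein), AT2G01300 (annotated as a mediator subunit), AT2G18480 (a major facilitator transporter), *PDF2.1* (a plant defensin), AT1G70390 (an F-box protein), AT2G38480 (a Casparian strip membrane protein-like gene) and AT2G32190 (a small cysteine-rich transmembrane protein). AT2G38480 overlaps *WRKY33* on the opposite strand. Without strand in the counts, reads of such a pair cannot be told apart. *WRKY33* itself had a log2 fold change of 0.08 (adjusted p = 0.888, limma). The call of *PDF2.1* was lost when WT control replicate 2, WT Al replicate 2, OX Al replicate 2 or OX Al replicate 3 was left out (adjusted p 0.0515 to 0.0696). It was also lost without control replicate 1 of both genotypes (log2 fold change 1.68, adjusted p = 0.0673) and without WT Al replicates 2 and 3 (2.31, adjusted p = 0.102).

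**Figure D1:**
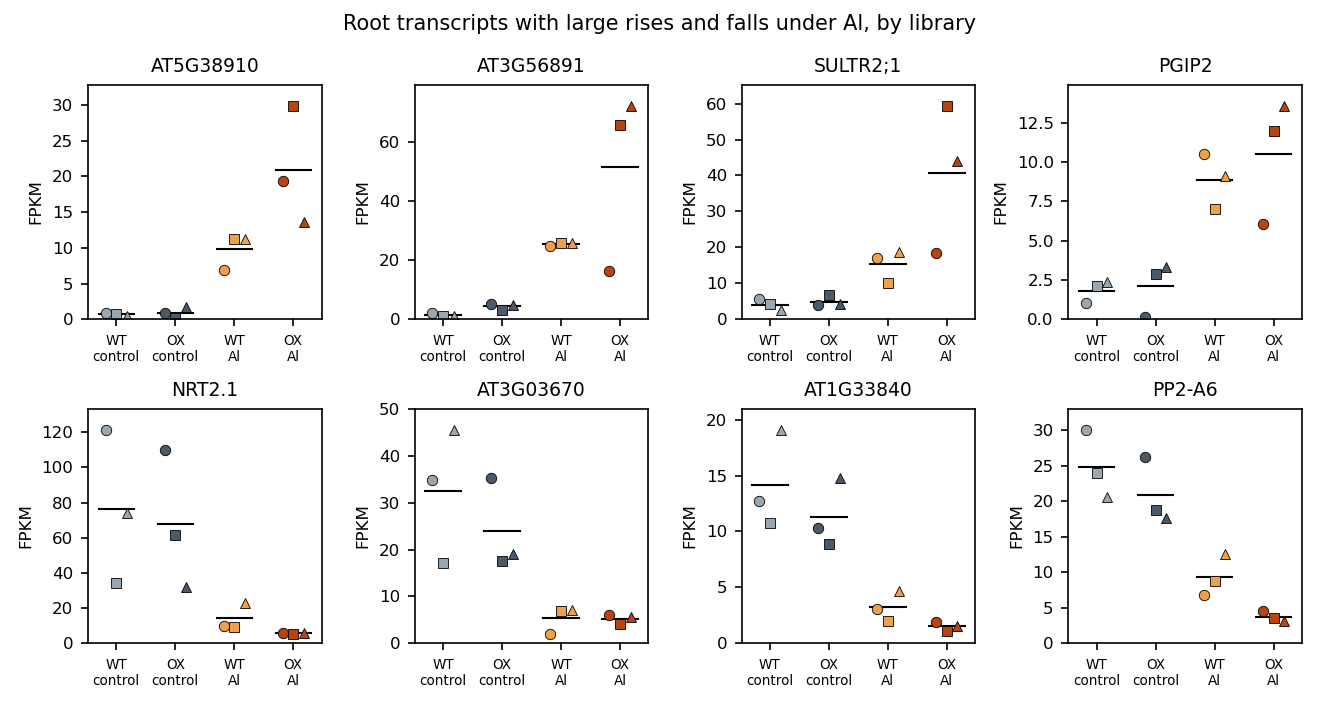
FPKM (linear axis from 0) of 8 genes with large changes in each library, by genotype and treatment. Points are libraries (circle, square and triangle for replicates 1, 2 and 3) and bars are group means. AT5G38910, AT3G56891, *SULTR2;1* and *PGIP2* are higher in all 6 Al libraries, and *NRT2.1*, AT3G03670, AT1G33840 and *PP2-A6* are lower in all 6.

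By log2 fold change, the largest fall was in *NRT2.1* (chromosome 1, 2524023 to 2526322 in TAIR10.1), the main high-affinity nitrate transporter of roots. Control libraries held 121, 34.1 and 74.1 (WT) and 109.8, 61.4 and 32.1 FPKM (OX), and Al libraries 10.098, 9.55 and 22.95 and 6.05, 5.45 and 6.05 FPKM (log2 fold change -2.79 with an SE of 0.37, limma adjusted p = 0.00175). Its lowest control value, 32.1 FPKM, was above its highest Al value, 22.95 FPKM in WT Al replicate 3. AT1G63570, a receptor-like kinase-related gene, fell from 5.53 ± 4.91 to 0.251 ± 0.158 FPKM (SD, n = 6), a change of -2.69 on the log2 scale (adjusted p = 0.00363). Both control replicates 1 were its highest libraries, at 14.1 (WT) and 8.85 FPKM (OX). *CYP710A3*, of the cytochrome P450 family that makes the sterol stigmasterol, was at 1.798, 2.83 and 10.2 FPKM in WT control and 2.12, 1.38 and 5.33 FPKM in OX control, and all its Al libraries were at 0.151 to 0.265 FPKM (log2 fold change -2.39, adjusted p = 0.00341, limma). No Al library of AT1G63570 or *CYP710A3* reached 0.5 FPKM, so both passed the minimum through control libraries alone. They had 1 to 9 and 4 to 7 fragments per Al library. In the fragment-count model, AT1G63570 (-4.16), *CYP710A3* (-3.865), *UMAMIT35* (-4.7) and AT5G65980 (-3.51) fell more than *NRT2.1* (-2.83). The rank of *NRT2.1* thus depended on the scale of the test.

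AT3G03670 and AT3G01190, both annotated as peroxidases, were among the 12 largest non-overlapping falls. AT3G03670 was at 34.8, 17.2 and 45.5 (WT) and 35.2, 17.57 and 19.1 FPKM (OX) control roots, and at 1.9, 6.81 and 7.18 and 6.14, 4.12 and 5.604 FPKM with Al (log2 fold change -2.3 with an SE of 0.32, adjusted p = 0.00263). AT3G01190 fell from 128 ± 49.9 to 35.5 ± 18.03 FPKM (SD, n = 6), a change of -1.9 on the log2 scale (adjusted p = 0.00738). In both genes the groups did not overlap, which was a condition of being named here. Of 59 genes annotated as peroxidases, a family picked after its values were seen, 0 were called higher and 3 lower (5.08%, beside 0.775% of all genes), and their median log2 fold change was -0.0981.

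Other genes of the 12 largest non-overlapping falls encode carriers, a receptor kinase and a lectin. *UMAMIT35*, of a family of amino acid exporters, went from 2.72 ± 1.76 to 0.122 ± 0.148 FPKM, and AT5G65980 (*PILS7*, of the PIN-LIKES auxin carriers) from 3.02 ± 1.57 to 0.257 ± 0.1797 FPKM (SD, n = 6), changes of -2.21 and -2.14 on the log2 scale (adjusted p = 0.00356 and 0.00109, limma). No Al library of *UMAMIT35* reached 0.5 FPKM, so it passed the minimum through control libraries alone, with 0 to 9 fragments per Al library. The leucine-rich repeat kinase gene AT5G37450 fell from 7.32 ± 2.27 to 1.57 ± 1.02 FPKM (log2 fold change -1.99, adjusted p = 0.00193). *PP2-A6*, a lectin of the phloem protein 2 family, was at 30.03, 23.98 and 20.6 FPKM in WT control and 26.1, 18.8 and 17.7 FPKM in OX control, against 6.82, 8.73 and 12.6 FPKM in WT Al and 4.52, 3.61 and 3.11 FPKM in OX Al (log2 fold change -1.86, adjusted p = 0.000903). AT4G07820 (a CAP-domain secreted protein), AT1G33840 (a LURP-one-like protein) and AT2G46495 (a RING/U-box protein) completed the 12 largest non-overlapping falls, at log2 fold changes of -2.33, -2.27 and -1.75. AT4G07820 lost its call without WT Al replicates 2 and 3 (-2.27, adjusted p = 0.0704), and its log2 fold change was -3.19 within WT and -1.46 within OX (adjusted p = 0.94 for the genotype difference).

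Several called genes lay beside each other on the chromosomes. Of the 161 genes called lower, 47 had another gene called lower within 3 tested loci, in 19 runs (29.2%). Of all tested genes with a position, called or not, 4.07% had a gene called lower that near. Of 191 genes called higher with a position, 28 had another gene called higher within 3 tested loci, in 12 runs (14.7%, beside 5.25% of all). No test was made of these shares. The run of AT1G33840, AT1G33870, AT1G33880, AT1G33900 and AT1G33910 had log2 fold changes of -2.27, -1.61, -1.48, -1.43 and -1.7 in that order. AT2G32190, AT2G32200 and AT2G32210 rose by 2.16, 1.36 and 1.53. Such neighbours are often related in sequence, and reads shared between near-identical copies could be split between them in the counting.

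The 250 bases before the annotated start of each gene (TAIR10.1, 20586 tested genes with a position) were searched on both strands for 6 short motifs, as a description with no test. The sequences below show where 2 of them lie in genes described here. GNATATNC, the site read by the phosphate starvation factor PHR1, was present in 11.5% of promoters of genes called higher, 4.97% of those called lower and 5.39% of all. CGCG, the core of the site read by calmodulin-binding CAMTA factors, was in 16.8%, 5.59% and 10.8%. CACGTG, the G-box, was in 15.2% of promoters of genes called higher, 2.48% of those called lower and 7.16% of all. TTGACC, a WRKY box, was in 11.5%, 13.7% and 12.3%, CATGT, a core read by NAC factors, in 38.7%, 36.6% and 34.5%, and the mitochondrial dysfunction motif, the site of the NAC factor ANAC017 and its relatives, in 0.524%, 1.24% and 0.568%. Matches of different motifs may overlap and were counted separately. A match is a description of these letters and not a site in use. Shown are *PS2* and *SULTR2;1*, which rose, and *PHT1;2*, which fell, with GNATATNC in capitals, and AT3G56891, which rose, and *ALMT1*, which missed the call, with CGCG in capitals, each read 5′ to 3′ on the strand of its gene.
PS2, chr1:27466349-27466598, minus strand: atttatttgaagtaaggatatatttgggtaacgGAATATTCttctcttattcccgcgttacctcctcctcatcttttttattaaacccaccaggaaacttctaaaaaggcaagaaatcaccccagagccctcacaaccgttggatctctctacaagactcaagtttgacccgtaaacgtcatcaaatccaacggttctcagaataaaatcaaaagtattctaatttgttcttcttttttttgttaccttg
SULTR2;1, chr5:3192767-3193016, plus strand: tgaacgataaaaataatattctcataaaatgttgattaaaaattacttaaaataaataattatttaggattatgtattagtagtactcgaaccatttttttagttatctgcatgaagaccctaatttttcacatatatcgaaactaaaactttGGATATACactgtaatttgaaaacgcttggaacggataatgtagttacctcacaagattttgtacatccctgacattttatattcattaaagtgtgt
PHT1;2, chr5:17415448-17415697, plus strand: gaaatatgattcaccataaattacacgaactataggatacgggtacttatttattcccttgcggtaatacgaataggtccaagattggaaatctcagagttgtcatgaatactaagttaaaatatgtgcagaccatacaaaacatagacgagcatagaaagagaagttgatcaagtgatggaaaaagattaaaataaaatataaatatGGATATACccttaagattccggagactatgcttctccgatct
AT3G56891, chr3:21064987-21065236, minus strand: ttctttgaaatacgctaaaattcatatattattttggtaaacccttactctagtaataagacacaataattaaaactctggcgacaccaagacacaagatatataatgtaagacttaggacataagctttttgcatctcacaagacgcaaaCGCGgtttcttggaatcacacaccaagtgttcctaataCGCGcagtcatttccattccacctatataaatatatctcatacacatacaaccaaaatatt
ALMT1, chr1:2658352-2658601, plus strand: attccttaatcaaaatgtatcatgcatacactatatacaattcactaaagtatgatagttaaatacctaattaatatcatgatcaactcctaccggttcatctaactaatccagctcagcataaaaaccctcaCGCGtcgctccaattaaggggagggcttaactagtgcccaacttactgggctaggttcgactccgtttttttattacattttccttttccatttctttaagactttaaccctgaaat
The single GNATATNC match began 217 bases before the start of *PS2*, 97 before that of *SULTR2;1* and 42 before that of *PHT1;2*, so it was present in members that rose and in one that fell. AT3G56891 held CGCG at 2 places and *ALMT1* at 1, beginning 117 bases before its start.

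Of 21 genes of the Al tolerance and STOP1 pathway tested, 1 was called higher (*PGIP2*) and 0 lower, beside 0.924% and 0.775% of all genes. Their median log2 fold change was 0.23. The adjusted p alone was at most 0.05 for 3 more. *NIP1;2* was at 20.1 ± 3.23 FPKM in control and 29.97 ± 7.29 FPKM in Al roots (SD, n = 6), a change of 0.55 on the log2 scale (adjusted p = 0.0224, limma). *GDH1*, a glutamate dehydrogenase gene that STOP1 is known to control, was at 89.96 ± 30.5 and 156 ± 23.3 FPKM (log2 fold change 0.85, adjusted p = 0.0301). *STAR1* pointed the other way, from 22.9, 18.5 and 29.3 (WT) and 21.2, 18.6 and 19.9 FPKM (OX) control to 14.4, 12.8 and 13.7 and 15.5, 11.8 and 12.5 FPKM with Al (log2 fold change -0.66, adjusted p = 0.00486). All 6 Al libraries of *STAR1* were below all control libraries, with a change under the limit of 1.

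*ALMT1* (chromosome 1, 2658602 to 2661310 in TAIR10.1) was at 15.6, 94.98 and 121 FPKM in WT control and 30.02, 165 and 161 FPKM in OX control replicates 1 to 3. With Al it was at 314, 209 and 214 (WT) and 209, 385 and 320.5 FPKM (OX). Every Al library was above every control library, yet the gene missed the call (log2 fold change 1.87 with an SE of 0.52, limma adjusted p = 0.0579). Both replicates 1 were the lowest control libraries by a wide margin. Without them the log2 fold change was 1.01 and the gene was called (adjusted p = 0.0155).

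Other members showed the same low control replicate 1. *ALS3* was at 6.84, 23.1 and 37.4 FPKM in WT control and 8.92, 38.9 and 51.8 FPKM in OX control, and at 44.5, 38.4 and 33.9 and 63.5, 83.6 and 72.4 FPKM with Al (log2 fold change 1.26, adjusted p = 0.126). *MATE* stood at 4.298, 51.5 and 58.1 and 8.12, 73.3 and 79.9 FPKM in control and at 86.1, 55.6 and 58.4 and 82.99, 112 and 102 FPKM with Al (log2 fold change 1.42, adjusted p = 0.267). For *SULTR3;5*, a sulfate transporter of the root vasculature, the control values were 3.72, 40.6 and 77.04 (WT) and 9.92, 71.8 and 70.3 FPKM (OX), and its Al values 107, 71.9 and 74.1 and 75.2, 163 and 138 FPKM (log2 fold change 1.74, adjusted p = 0.171). Without control replicate 1 of both genotypes the log2 fold changes were 0.54 for *ALS3*, 0.31 for *MATE* and 0.65 for *SULTR3;5*, with adjusted p of 0.081, 0.237 and 0.16.

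*HAK5*, the high-affinity potassium transporter gene, turned with these libraries. It was at 11.5, 318 and 380.1 FPKM in WT control and 47.5, 377 and 480.4 FPKM in OX control, and at 156, 165 and 139 and 274, 199 and 164 FPKM with Al. Over all libraries its log2 fold change was 0.23 (adjusted p = 0.916, limma), and without control replicate 1 of both genotypes it was -1.11 and called lower (adjusted p = 0.00547). Leaving out replicate 1 of WT control alone gave -0.52, and of OX control alone -0.22.

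The remaining members had values on both sides of 0. *STOP1* was at 116 ± 12.3 FPKM in control and 99.3 ± 5.22 FPKM in Al roots, and its homolog *STOP2* at 70.9 ± 12.4 and 53.98 ± 5.26 FPKM (SD, n = 6), changes of -0.22 and -0.37 on the log2 scale (adjusted p = 0.163 and 0.108). *ALS1* was at 11.97 ± 1.17 and 13.5 ± 1.12 FPKM (log2 fold change 0.17, adjusted p = 0.129). *CAMTA2*, a calmodulin-binding factor that binds the *ALMT1* promoter, had a log2 fold change of 0.54, and *GDH2*, the other glutamate dehydrogenase gene, 0.48 (adjusted p = 0.0519 and 0.103, limma). The F-box genes *RAE1* and *RAH1*, whose products mark STOP1 for degradation, had 0.14 and 0.11, and *HPR1*, of the mRNA export complex that affects STOP1, -0.06. For the nitrate transceptor gene *NRT1.1* the log2 fold change was -0.49, for the kinase gene *CIPK23* 0.09, for *WRKY46*, a repressor of *ALMT1*, 0.57 and for the heat shock factor gene *HSFA2* 0.02. From *RAE1* to *HSFA2*, the adjusted p of these 7 genes was 0.296 or more. *STAR1*, *GDH1*, *ALS3* and *STOP1* each overlap a gene on the opposite strand.

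**Figure D2:**
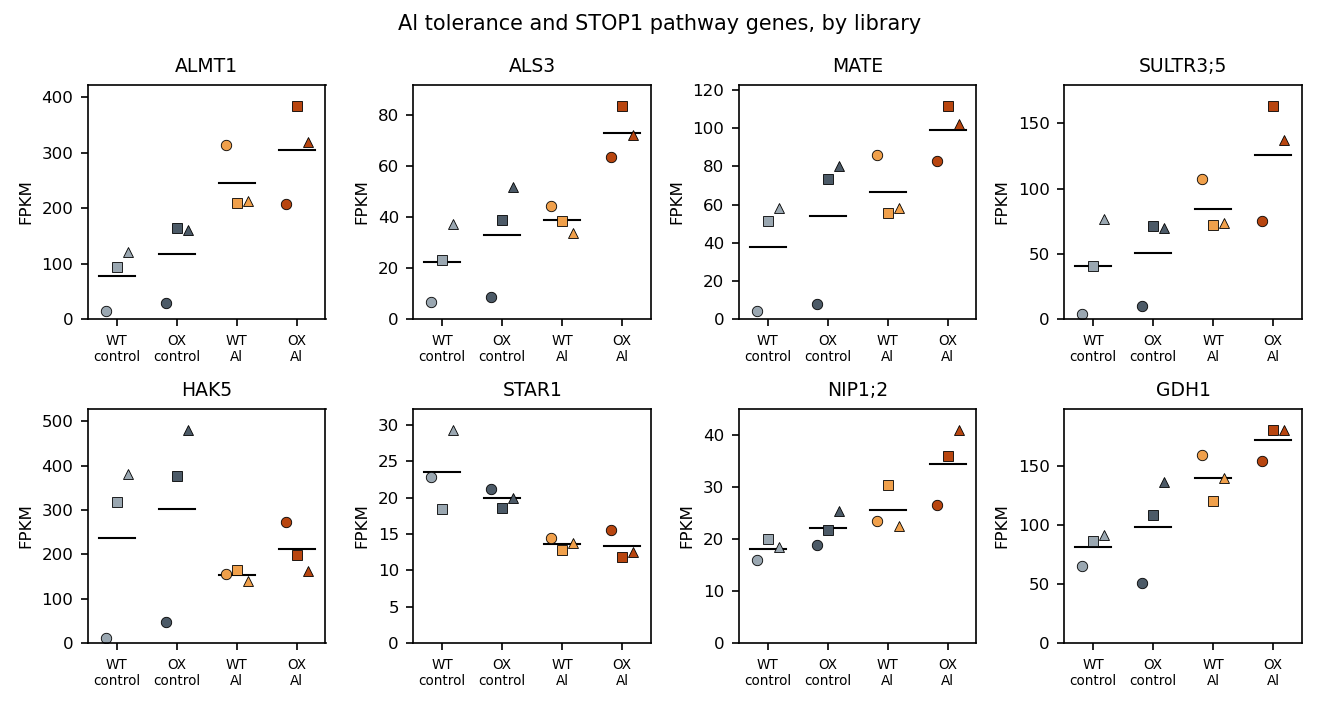
FPKM (linear axis from 0) of 8 genes of the Al tolerance and STOP1 pathway in each library, by genotype and treatment. Points are libraries (circle, square and triangle for replicates 1, 2 and 3) and bars are group means. In *ALMT1*, *ALS3*, *MATE*, *SULTR3;5* and *HAK5* the circle of each control group lies far below its other control points.

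Among 21 *XTH* genes tested, 4 were called higher and 0 lower, beside 0.924% and 0.775% of all genes, with a median log2 fold change of 0.23. Summed over the list, FPKM were 681 to 1825 in control and 1844 to 3578 in Al libraries. *XTH23* (chromosome 4, 13128394 to 13129927 in TAIR10.1) was at 68.9, 37.3 and 21.2 FPKM in WT control and 84.6, 93.04 and 71.8 FPKM in OX control, and at 202, 195 and 139 and 105, 318 and 331 FPKM with Al (log2 fold change 1.81 with an SE of 0.33, limma adjusted p = 0.00795). No control library of *XTH23* reached an Al library. *XTH22*, also known as the touch-induced gene *TCH4*, rose from 117 ± 77.4 to 307 ± 129.5 FPKM, and *XTH18* from 66.3 ± 30.04 to 187 ± 80.9 FPKM (SD, n = 6), changes of 1.59 and 1.5 on the log2 scale (adjusted p = 0.0338 and 0.00788). *XTH25*, the neighbour of *XTH22*, was the fourth, at 0.407 ± 0.405 FPKM in control and 1.55 ± 0.4703 FPKM in Al roots (log2 fold change 1.24, adjusted p = 0.017). Of the control libraries of *XTH25*, only OX control replicates 2 and 3 reached 0.5 FPKM (0.522 and 1.17). It thus passed the minimum only with its Al libraries.

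The other 17 *XTH* genes were not called, among them *XTH13* at a log2 fold change of -0.41, *XTH14* at -0.47 and *XTH24* at 1.13. The call of *XTH22* was lost without any 1 of WT control replicates 1 and 2, the 3 WT Al replicates and OX Al replicates 2 and 3 (adjusted p 0.0575 to 0.0886), and that of *XTH25* without OX Al replicate 2 (0.052) or without control replicate 1 of both genotypes (log2 fold change 1.04, adjusted p = 0.0556). With no genotype term *XTH22* was not called (0.0545), nor was *XTH25* with a pseudocount of 1 (log2 fold change 0.88). Without WT Al replicates 2 and 3 together, which keeps 1 WT Al library, these *XTH* calls did not hold. The log2 fold changes were then 1.75 for *XTH23*, 1.66 for *XTH22*, 1.41 for *XTH18* and 1.21 for *XTH25*. Over all libraries they were 1.81, 1.59, 1.5 and 1.24 in that order. Of 10 expansin genes, which loosen walls, 0 were called. *EXPA1* had a log2 fold change of 0.31 and *EXPA18* -0.74 (adjusted p = 0.157 and 0.225, limma). Called genes with wall-related products outside the lists, chosen after their values were seen, included *XT1*, a xylosyltransferase of xyloglucan synthesis, at 21.4 ± 3.32 FPKM in control and 55.6 ± 18.4 FPKM in Al roots, and the arabinogalactan protein gene *AGP2* at 100.2 ± 31.8 and 278 ± 118 FPKM (SD, n = 6), changes of 1.3 and 1.42 on the log2 scale (adjusted p = 0.00323 and 0.0039).

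Iron uptake in Arabidopsis runs through the ferric reductase FRO2 and the transporter IRT1, both under the bHLH factor FIT, and NAS1 makes the metal chelator nicotianamine. Of 19 iron deficiency genes tested, 0 were called higher and 3 lower, beside 0.775% of all genes called lower, with a median of -0.13. *FIT* (chromosome 2, 12004658 to 12006276 in TAIR10.1) was at 17.8, 7.59 and 10.4 FPKM in WT control and 13.4, 6.99 and 8.83 FPKM in OX control, and at 4.83, 4.14 and 4.098 and 4.15, 1.74 and 2.105 FPKM with Al (log2 fold change -1.5 with an SE of 0.24, limma adjusted p = 0.00408). Its 6 Al libraries were all below its 6 control libraries. *NAS1* fell from 26.4 ± 8.84 to 9.46 ± 2.54 FPKM and *FRO2* from 6.11 ± 4.22 to 2.07 ± 0.823 FPKM (SD, n = 6), changes of -1.39 and -1.21 on the log2 scale (adjusted p = 0.0064 and 0.034). *IRT1* was at 12.6 ± 9.47 and 4.37 ± 1.91 FPKM and did not pass (log2 fold change -1.24, adjusted p = 0.123).

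Not all of the list pointed down. *BTS*, the ubiquitin ligase that restrains the iron response, was at 28.7 ± 1.94 FPKM in control and 37.4 ± 2.43 FPKM in Al roots (log2 fold change 0.37, adjusted p = 0.00603), with all Al libraries above all control libraries. The bHLH factor genes *BHLH38* and *BHLH39*, which act with FIT, had log2 fold changes of -0.08 and -0.02 (adjusted p = 0.915 and 0.987). The 4 iron storage genes had 0 calls, with *FER1*, a ferritin gene, at 0.4 and *VTL1*, a vacuolar iron transporter-like gene, at 0.32 (adjusted p = 0.471 and 0.626, limma). The call of *FRO2* was lost in 7 of the 12 fits with 1 library left out. In 6 of these (WT Al replicates 1 and 2, OX control replicates 1 and 3 and OX Al replicates 2 and 3) the adjusted p was 0.067 to 0.086, and without WT control replicate 3 the log2 fold change was -0.99. It was also lost without WT Al replicates 2 and 3 (adjusted p = 0.09), in the fragment-count model (0.0574), with no genotype term (0.0649) and with no filter on low values (0.0504).

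Phosphate was absent from the medium in the methods, which the RNA-seq methods describe only for seedlings with Al. Of 24 phosphate starvation genes tested, 1 was called higher and 3 lower, beside 0.924% and 0.775% of all genes, and the median was -0.12. The phosphate importer gene *PHT1;1* (chromosome 5, 17399769 to 17402158 in TAIR10.1) was at 774, 846 and 986 FPKM in WT control and 824, 619 and 781 FPKM in OX control, and at 308, 372 and 338 and 389.97, 173 and 211 FPKM with Al (log2 fold change -1.48 with an SE of 0.19, limma adjusted p = 0.00143). The groups were well separated. *PHT1;2*, its near-identical neighbour, fell from 6.22 ± 2.71 to 1.66 ± 0.716 FPKM, and *PHT1;8* from 1.93 ± 1.03 to 0.6197 ± 0.258 FPKM (SD, n = 6), changes of -1.6 and -1.04 on the log2 scale (adjusted p = 0.0039 and 0.0243). How reads were divided between *PHT1;1* and *PHT1;2* is uncertain. *PHF1*, needed to bring these carriers to the plasma membrane, was at 40.7 ± 6.68 and 25.8 ± 4.095 FPKM (log2 fold change -0.65, adjusted p = 0.00452).

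The call in the other direction was *PS2*, a pyrophosphate-cleaving phosphatase gene, at 14.9, 5.32 and 4.27 FPKM in WT control and 12.7, 6.43 and 9.55 FPKM in OX control, and at 28.8, 28.1 and 18.6 and 12.1, 52.5 and 48.7 FPKM with Al (log2 fold change 1.73, adjusted p = 0.0194). *SQD2*, which makes sulfolipid in place of phospholipid, was at 12.3 ± 2.599 and 24.3 ± 7.29 FPKM, with no overlap and a change just under the limit (log2 fold change 0.93, adjusted p = 0.0132). The starvation markers *SPX1*, *SPX3* and *PECP1* had log2 fold changes of -0.18, -0.14 and 0.11 (adjusted p of 0.747 or more, limma). Outside the list, and chosen after its values were seen, the purple acid phosphatase gene *PAP22* rose from 4.78 ± 2.57 to 18.9 ± 9.38 FPKM (log2 fold change 1.92, adjusted p = 0.00721). The call of *PS2* was lost without OX Al replicate 2 or 3 (adjusted p = 0.0553 and 0.056) and without WT Al replicates 2 and 3 (0.075). That of *PHT1;8* was lost without replicate 1 of WT control or of OX control (log2 fold change -0.899 in both), WT Al replicate 2 or 3 (-0.98 and -0.97) or OX Al replicate 3 (adjusted p = 0.0587). It was also lost without control replicate 1 of both genotypes (-0.72, adjusted p = 0.0575), without WT Al replicates 2 and 3 (-0.84, adjusted p = 0.144) and with a pseudocount of 1 (-0.80).

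*NRT2.1* and its partner gene were the nitrate genes called lower. Of 9 nitrate genes tested, 0 were called higher and 2 lower, beside 0.924% and 0.775% of all genes, and the median was -0.60. *NRT3.1* (chromosome 5, 20436180 to 20437815 in TAIR10.1), the partner protein that NRT2.1 needs for transport, was at 324, 196 and 200.2 FPKM in WT control and 218, 214 and 199 FPKM in OX control, and at 93.8, 123 and 120.3 and 80.5, 55.95 and 64.8 FPKM with Al (log2 fold change -1.36 with an SE of 0.16, limma adjusted p = 0.00109). The lowest control library stood above the highest Al library by more than the whole Al range. *NIR1*, for nitrite reductase, had a log2 fold change of -0.81, *NRT2.2* -0.74 and *NIA2*, for the main nitrate reductase, 0.42 (adjusted p = 0.0781, 0.112 and 0.151). *NIA1* was at 12.5, 191 and 294 FPKM in WT control and 22.95, 359 and 382 FPKM in OX control, and at 358, 201 and 181 and 278, 593 and 505 FPKM with Al (log2 fold change 1.48, adjusted p = 0.368), so its control replicates 1 were low as well.

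*AMT1;3* and *GSR2*, which act in ammonium uptake and assimilation, are in none of the lists and were chosen because they fell. The ammonium transporter gene *AMT1;3* was at 49.4, 36.5 and 45.4 FPKM in WT control and 58.6, 34.4 and 31.8 FPKM in OX control, and at 20.5, 11.98 and 18.6 and 16.9, 7.26 and 7.51 FPKM with Al (log2 fold change -1.67, adjusted p = 0.00289, limma). *GSR2*, for a cytosolic glutamine synthetase, fell from 501 ± 141 to 171 ± 43.7 FPKM (SD, n = 6), a change of -1.55 on the log2 scale (adjusted p = 0.00287). In both genes the 6 Al libraries lay below the 6 control libraries.

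**Figure D3:**
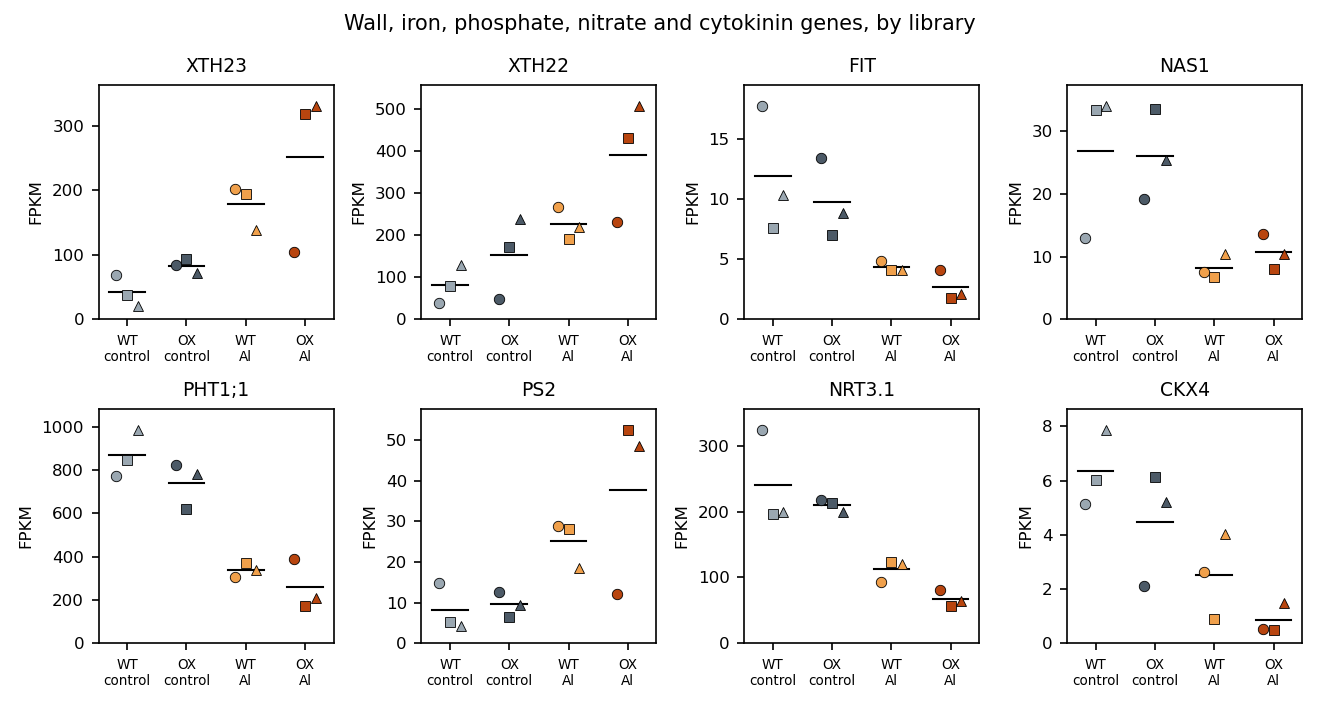
FPKM (linear axis from 0) of 8 called genes of the wall, iron, phosphate, nitrate and cytokinin lists in each library, by genotype and treatment. Points are libraries (circle, square and triangle for replicates 1, 2 and 3) and bars are group means. *XTH23*, *XTH22* and *PS2* are higher with Al, and *FIT*, *NAS1*, *PHT1;1*, *NRT3.1* and *CKX4* lower.

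For the other transport and hormone lists, calls are to be read beside 0.924% of all genes called higher and 0.775% lower. Of 22 aquaporin genes 1 was called, lower: *TIP2;2*, a tonoplast water channel, went from 60.8 ± 39.8 to 19.6 ± 8.37 FPKM (SD, n = 6), a change of -1.46 on the log2 scale (adjusted p = 0.0385, limma). Of 17 cytokinin genes 1 was called, lower: *CKX4*, a cytokinin-degrading oxidase, was at 5.13, 6.01 and 7.87 FPKM in WT control and 2.11, 6.14 and 5.21 FPKM in OX control, and at 2.65, 0.898 and 4.03 and 0.546, 0.505 and 1.49 FPKM with Al (log2 fold change -1.59, adjusted p = 0.0143). Of 12 jasmonate genes 1 was called, higher: the repressor gene *JAZ7* rose from 3.35 ± 0.689 to 8.15 ± 3.18 FPKM (log2 fold change 1.1, adjusted p = 0.0178). All 12 had log2 fold changes above 0, beside 10298 of all 20773 tested genes. Summed over the jasmonate list, FPKM were 222, 168 and 456 in WT Al and 149, 258 and 299 in OX Al replicates 1 to 3. Control libraries summed to 108 to 242 FPKM, so WT Al replicates 1 and 2 and OX Al replicate 1 lay within their range. Of 24 tau and phi glutathione transferase genes 1 was called, higher: *GSTU5*, at 14.6 ± 7.12 and 32.7 ± 9.86 FPKM (log2 fold change 1.23, adjusted p = 0.0432).

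Of these 4 calls, 3 were lost when single libraries were left out. *JAZ7* lost its call without WT Al replicate 3 (log2 fold change 0.97) or OX Al replicate 2 or 3 (adjusted p = 0.0519 and 0.0512), and without WT Al replicates 2 and 3 (0.0591). *TIP2;2* lost it without WT control replicate 1 or 3, OX control replicate 1 or 2, WT Al replicate 1 or 2 or OX Al replicate 2 or 3 (adjusted p 0.0645 to 0.1004), and *GSTU5* without any 1 library other than WT control replicate 1 and WT Al replicate 3 (0.0577 to 0.102). Without control replicate 1 of both genotypes *TIP2;2* was at -0.95 (adjusted p = 0.078), and without WT Al replicates 2 and 3 *TIP2;2* and *GSTU5* were not called (0.111 and 0.0709). Both also missed the call with no filter, no genotype term, a mean per group or no variance trend (0.0507 to 0.0601 and 0.0566 to 0.0639).

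Auxin genes had 0 calls among 24 tested, with 22 log2 fold changes above 0 (10298 of all 20773 tested genes) and a median of 0.37. The nearest were *GH3.5* and *GH3.6*, which conjugate auxin to amino acids, at 0.92 and 0.55 (adjusted p = 0.0509 and 0.0722, limma). *GH3.5* was called without OX Al replicate 1 (log2 fold change 1.09, adjusted p = 0.0134). Of 19 ethylene genes 0 were called, with the ACC synthase genes *ACS7* at 0.86 and *ACS8* at 0.71 (adjusted p = 0.0677 and 0.161). Without control replicate 1 of both genotypes *ACS7* was called higher (log2 fold change 1.09, adjusted p = 0.037). In the abscisic acid and dehydration list 0 of 13 were called, and the phosphatase genes *HAI3* and *HAI2* passed the adjusted p alone (log2 fold changes 0.79 and 0.63, adjusted p = 0.0326 and 0.0468). Both were called in the fragment-count model (1.45 and 1.01, adjusted p = 0.035 and 0.0434), and *HAI3* also with a pseudocount of 0.1 (1.3).

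Stress lists without a call were the mitochondrial (9 genes, *AOX1A* for alternative oxidase at 0.23 and *NTL7* at -0.17), DNA damage (14 genes, *SOG1*, the damage-response NAC factor, at -0.17 and the cell cycle kinase gene *WEE1* at 0.25), heat shock (11 genes, the small heat shock gene AT5G12030 at 0.64 and *HSP70-4* at 0.48), defence (9 genes, *WRKY70* at 0.46 and *WRKY53* at -0.61) and flavonoid (5 genes, *F3'H* at -0.42 and *MYB12* at -0.36) lists. The adjusted p of these 10 genes was 0.253 or more. Outside the lists, and chosen after its values were seen, the other alternative oxidase gene *AOX2* rose from 0.869 ± 0.907 to 4.32 ± 2.696 FPKM (SD, n = 6), a change of 1.87 on the log2 scale (adjusted p = 0.0118, limma).

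Root hair genes had lower values with Al mainly in OX, a difference that no gene's test called. Of 14 tested, 0 were called and 13 had log2 fold changes below 0 (10475 of all 20773 tested genes), with a median of -0.63. Within WT alone the median was 0.21, and within OX alone -1.53. *RBOHC*, the NADPH oxidase that drives hair growth, was at 15.2, 14.5 and 14.7 FPKM in WT control and 17.1, 16.9 and 16.9 FPKM in OX control, and at 11.7, 8.84 and 13.9 and 9.73, 4.53 and 5.32 FPKM with Al (log2 fold change -0.88, adjusted p = 0.0329, limma). *RHS19*, a root hair peroxidase gene, was at 23.9, 18.02 and 13.7 and 34.04, 35.6 and 47.7 FPKM in control and at 18.8, 8.77 and 16.4 and 17.2, 5.701 and 9.62 FPKM with Al (log2 fold change -1.14, adjusted p = 0.0737). In the test of the genotype difference itself the adjusted p was 0.94 for *RBOHC* and 0.94 for *RHS19*. *RBOHC* was called without WT Al replicate 3 (log2 fold change -1.001, adjusted p = 0.0176), and *RHS19* without WT control replicate 3 (-1.31, 0.0489) or WT Al replicate 1 (-1.32, 0.0498). Without WT Al replicates 2 and 3 *RBOHC* was called lower (-1.03, adjusted p = 0.0465), and with a mean per group *RHS19* was (-1.14, adjusted p = 0.0312).

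Lists of cell types had 0 calls, in 10 dividing-cell genes (median 0.13), 12 endodermis and suberin genes (0.13), 4 xylem genes (-0.27), 3 root cap genes (0.06) and the 1 stomatal lineage gene tested of 4 listed. Of the 8 reference genes 0 were called, and *ACT2* and *GAPC2* passed the adjusted p alone, at log2 fold changes of -0.45 and -0.45 (adjusted p = 0.0451 and 0.0465, limma).

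**Figure D4:**
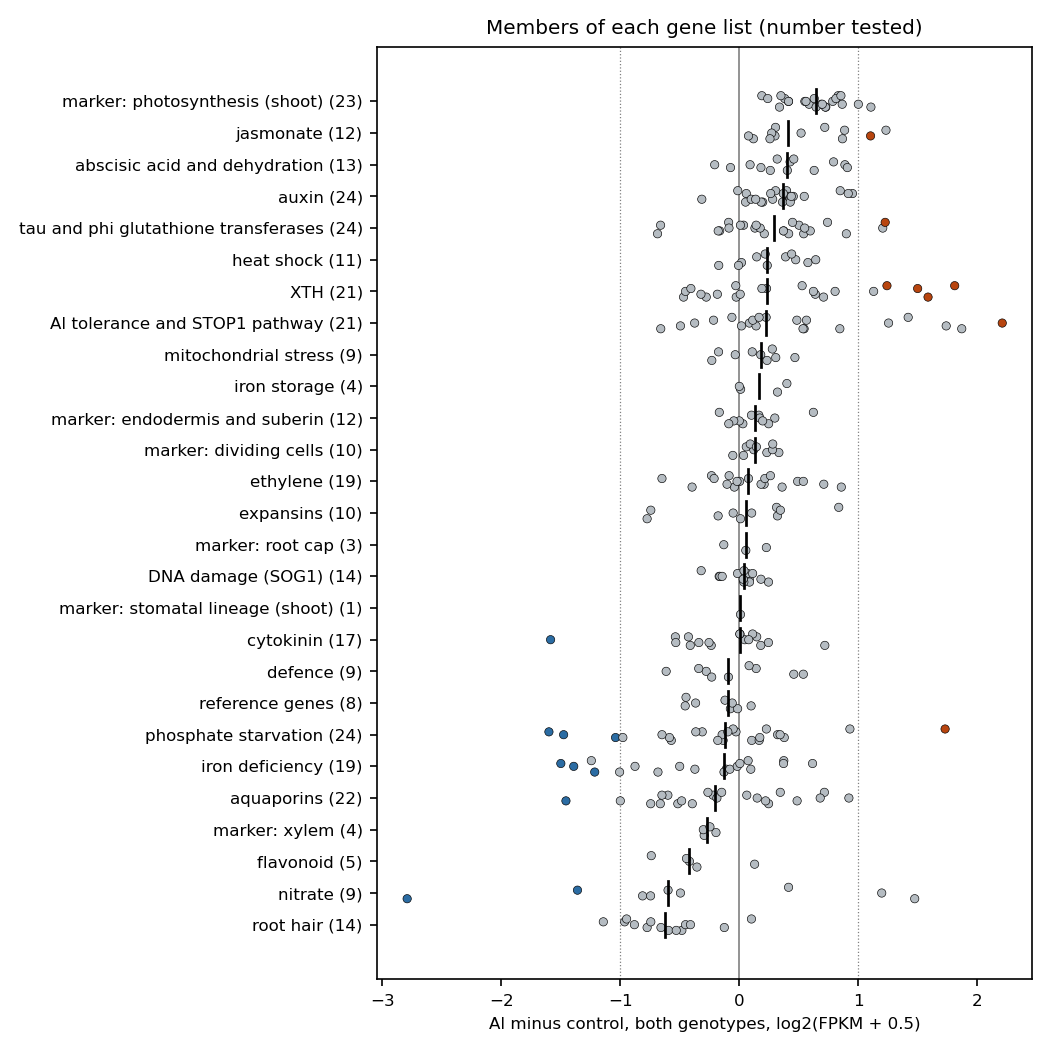
Log2 fold change, Al minus control over both genotypes on the log2(FPKM + 0.5) scale, of every tested member of 27 gene lists, with the number tested in brackets. Points are genes (orange called higher, blue called lower, grey not called), black bars are list medians and dotted lines mark a change of 1 in size. The *XTH* list holds 4 genes called higher and the photosynthesis and root hair lists have the highest and lowest medians.

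The direction was the same in WT and OX for all 353 called genes, which the choice of genes by the pooled difference favours. With each genotype fitted on its own libraries, 42 genes were called higher and 15 lower in WT, and 11 and 28 in OX. In a fit with a mean per group over all 12 libraries, the counts within WT were 34 and 35 (0.332% of tested genes). Within OX they were 59 and 120 (0.862%), so which genotype had more genes called higher depended on the fit. Of the 192 genes called higher, 28 were also called within WT, 33 within OX and 144 in neither, and their median log2 fold change was 1.39 in WT and 1.31 in OX. Of the 161 called lower, 28 were also called within WT, 80 within OX and 74 in neither, with medians of -1.22 and -1.41. The fall was the larger one in OX in 105 of these 161 genes and the rise in 73 of the 192. The test of the genotype difference called 0 genes (limma), with 1035 of 20773 at an unadjusted p under 0.05, and a p that misses the limit does not show that the genotypes answered alike.

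**Figure D5:**
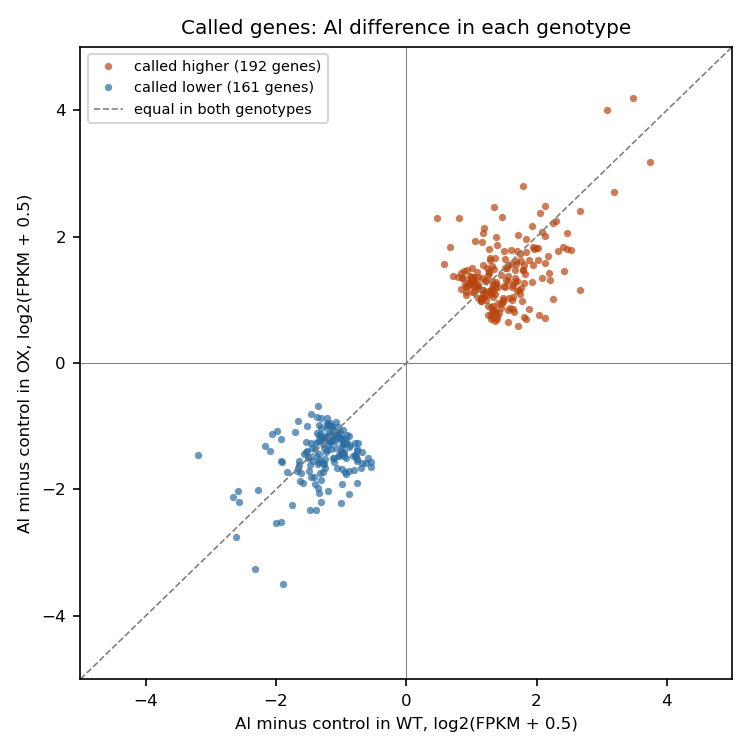
Log2 fold change, Al minus control, in WT (x axis) and in OX (y axis) on the log2(FPKM + 0.5) scale, for the 192 genes called higher and the 161 called lower over both genotypes. Each point is a gene and the dashed line marks equal change. All 353 points lie in the quadrants of equal sign, where the choice of genes places them, and 105 of the 161 falls are larger in OX.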

How the data were processed

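Total RNA of roots was sequenced in 12 libraries, 3 for each genotype and treatment in the labels. The authors used HISAT2 to place paired reads on TAIR10 and HTSeq (0.6.0 in the submitters' processing notes) to count them by gene, and deposited FPKM. They compared groups with DEGseq. Strand was not given in the sources used here. With exon lengths of TAIR10.1, the deposited FPKM of 98.3% of 25872 genes were whole fragments (within 0.01), 16030391 to 17087008 per library, which limits the precision of low genes.

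Here log2(FPKM + 0.5) was fitted with limma 3.58.1 (R 4.3.3, variance trend), with genotype and Al as terms, for genes reaching 0.5 FPKM in 3 or more libraries. A fit with a mean per group gave each genotype and the interaction. Correlations within groups were 0.951 to 0.983. Tables were made with pandas 2.3.3 and numpy 2.4.6 in Python 3.11.15, and figures with matplotlib 3.10.9. Named are the 12 largest non-overlapping rises and falls among called genes, every gene of the Al tolerance list, and in other lists up to 4 called members or, with none, up to 2 of lowest p. Genes named beyond this rule were chosen after their values were seen. The comparison and the lists were chosen with earlier results of these data known. Listed genes without a value here, such as *MYC2*, were not analysed here. Alternatives were other pseudocounts, filters, scalings, model terms and moderation, adjusted p alone, voom on fragments, single genotypes and libraries left out.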

Additional observations from a re-analysis of the deposited data

Results flagged for a closer look

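In 12 of 190 sets of 6 libraries examined (6.32%, the Al or the control libraries of a named gene on the log2 scale), the highest or lowest library stood apart from the other 5, by a gap that took more of the range than Dixon's 95% limit allows. Chance flags about 1 in 20 such sets. Among control libraries, WT control 2 was lowest for AT2G01300 (3.26 against 6.03 to 8.05 FPKM, ratio 0.673). WT control 1 was highest for AT2G46495 (13.2 against 5.79 to 7.72 FPKM, ratio 0.656) and for *NRT3.1* (324 against 196 to 218 FPKM, ratio 0.795), and lowest for *GPAT5* (7.54 against 19.7 to 33.5 FPKM, ratio 0.638). OX control 1 was lowest for *CIPK23* (114 against 143 to 159 FPKM, ratio 0.677) and for *CKX4* (2.11 against 5.13 to 7.87 FPKM, ratio 0.66).

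Among Al libraries, WT Al 3 was highest for *WRKY46* (10.07 against 2.42 to 3.96 FPKM, ratio 0.67) and *WRKY53* (17.0 against 1.83 to 3.9 FPKM, ratio 0.685), and lowest for *GSTU5* (14.7 against 31.1 to 41.8 FPKM, ratio 0.714). WT Al 1 was highest for *PHT1;8* (1.13 against 0.416 to 0.567 FPKM, ratio 0.737), OX Al 1 for *F3'H* (1.37 against 0.502 to 0.741 FPKM, ratio 0.659) and OX Al 2 for *TMM* (0.605 against 0.39 to 0.463 FPKM, ratio 0.638). The cause was not tested.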

How the results depend on the processing

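The counts of 192 genes called higher and 161 lower became 552 and 566 with an adjusted p of at most 0.05 alone, 42 and 15 in WT alone, 11 and 28 in OX alone, and 126 and 157 without WT Al replicates 2 and 3. They stayed within 1.5 times the main counts under every other alternative run, with 159 to 231 higher and 128 to 196 lower over pseudocounts of 1 and 0.1. Voom on the fragments gave 231 and 195, 328 of the 353 genes among them. Quantile normalization gave 179 and 177. Leaving out 1 library gave 128 to 260 higher and 127 to 200 lower, lowest without OX Al replicate 2 and highest without OX Al replicate 1. Leaving out control replicate 1 of both genotypes gave 184 and 160, with 264 of the 353 genes among them. The fit with the replicate number as a block gave 198 and 163 genes, and *ALMT1* was called in it (adjusted p = 0.0258). Residuals of same-numbered libraries correlated from -0.247 to 0.286, and at 0.176 between WT control 1 and OX control 1. Whether the replicate number marks a pairing or a batch is not stated in the labels and was not tested. The interaction test called 0 genes over all libraries, with the replicate block and with any 1 of the 12 libraries left out. Over the named genes, 2554 values kept direction and call, 145 lost the call, 20 gained it and 29 changed sign, all of genes not called. *HAK5* was at -1.11 without control replicate 1 of both genotypes and at -0.52 to 0.59 with 1 library left out. For *HSFA2* the values were -0.0327 with quantile normalization, -0.0352 without control replicate 1 of both genotypes, -0.0695 in OX alone and -0.116 to 0.212 with 1 library left out. *TMM* was at -0.0150 with a pseudocount of 1, -0.0650 with quantile normalization, -0.327 without control replicate 1 of both genotypes, -0.0294 in WT alone and -0.184 to 0.124 with 1 library left out. Without control replicate 1 of both genotypes, *VTL1* was at -0.0736 and *BRN2* at 0.107. In WT alone *CIPK23* was at -0.0149, *HPR1* at 0.0026, *EXPA18* at 0.0551 and *BRN2* at 0.355, and in OX alone *RAH1* at -0.0162, *SMB* at -0.209 and *GPAT5* at -0.0999. The cause was not tested. *XTH25* had no value with a mean FPKM of at least 1. With few fragments behind them, genes under about 1 FPKM are the least precise.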
